A study of Homo sapiens with 8 samples.

Results

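Genes of cholesterol synthesis were examined in A549 cells treated with interferon gamma (IFN-γ), with AX-0085 or with both. The group was HMGCS1, IDI1, FDFT1, SQLE, LSS, SC5D and DHCR7, which encode enzymes of the pathway, and INSIG1, which encodes a regulator of it. Its 8 genes were found by symbol among the 60664 Ensembl genes of the count table. All 8 had counts, and all 8 were among the 15066 genes that were expressed highly enough to be tested.

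Cells make cholesterol from acetyl-CoA through mevalonate, isoprenoid diphosphates, squalene and lanosterol. The transcription factor SREBP2 turns on most genes of this pathway after it is carried from the endoplasmic reticulum to the Golgi by SCAP and cut there. When sterols are plentiful, INSIG proteins hold SCAP and SREBP2 back, and INSIG1 is itself a target gene of SREBP2.

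RNA was sequenced from 8 libraries, with 2 for each of 4 groups. A549 is an established line of human lung adenocarcinoma with an alveolar epithelial origin, and it was grown in medium with fetal bovine serum. AX-0085 is a kinase inhibitor from the study's own synthesis, selected for blocking the activation of a PD-L1 reporter by IFN-γ. The groups were cells without either agent, here called untreated, cells with 20 ng IFN-γ (the labels give no volume), cells with 0.5 μM AX-0085, and cells with both. IFN-γ was given 24 h before AX-0085, and the cells were harvested 24 h after that. Nothing in the labels says that the duplicates came from separate cultures, so the p-values below measure only the spread between these libraries, which may be technical.

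The libraries held between 20672828 and 29978251 counts. Levels are given as CPM (counts scaled to the size of the library) after scaling by TMM factors, and 3 counts corresponded to between 0.1001 and 0.145 CPM. Of the 8 genes of the IFN-γ response list, 5 were tested and all 5 rose with IFN-γ, while the other 3 were listed at 0 in all libraries, those with IFN-γ included. The 8 epithelial and A549 markers were present in every library, with a summed level between 15020 and 15780 CPM with IFN-γ and between 22720 and 23280 CPM in untreated cells. This sum hides unequal changes. EPCAM lay at 3.41 and 3.30 CPM in untreated cells and at 0.475 and 0.281 CPM with IFN-γ, and CDH1 at 36.2 and 35.8 against 10.7 and 10.9 CPM. ALDH1A1, the 1 marker with a log2 fold change above 0, lay at 7544 and 7414 against 8456 and 8351 CPM. Its change of 0.17 had an adjusted p of 0.0677 in edgeR's quasi-likelihood test, over the 0.05 limit used below. Of 11 markers of blood, fibroblast and endothelial cells, 2, CD3E among them, were listed at 0 in all libraries. The summed level of the 11 lay between 4.78 and 6.34 CPM with IFN-γ and between 12.1 and 14.0 CPM in untreated cells. The fibroblast marker COL1A1 was not absent and lay above EPCAM, at 8.83 and 10.55 CPM in untreated cells and at 4.33 and 2.85 CPM with IFN-γ. The blood marker ITGAM lay at 2.4 and 2.3 CPM in untreated cells. Genes of the mitochondrial genome took 1.71% and 1.82% of the counts with IFN-γ and between 2.72% and 5.73% in the other groups. The part of these differences in the results below was not tested.

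The promoters of the group were searched for letters bound by SREBPs and by the factors that act with them, in windows from 250 bases before to 50 bases after each annotated start (RefSeq, GRCh38.p14). Such windows were given for 6 of the 8 genes, without SQLE and FDFT1. On both strands, the NF-Y box CCAAT was found in 6 of 6 genes and in 39.7% of the 27305 genes with a window, and the Sp1 box GGGCGG in 6 of 6 and 48.3%. The E-box CACGTG was found in INSIG1, LSS and SC5D and in 8.77% of all genes. The sterol regulatory element TCACNCCAC was found in 0 of 6 and in 1.39% of all genes, which says only that these letters are not in these windows. The stretches shown belong to the 4 genes with the largest falls with IFN-γ, are limited to bases outside annotated exons, and are written 5′ to 3′ on the strand of the gene. They lie at chr7:155297628-155297775 on the plus strand (INSIG1), chr11:71448436-71448561 on the minus strand (DHCR7), chr21:46228825-46229024 on the minus strand (LSS) and chr5:43313513-43313662 on the minus strand (HMGCS1). The stretch of DHCR7 is intronic in the longest annotated span of the gene, and the other three end at the base before their gene. Capitals mark the NF-Y box, which reads ATTGG where it lies on the opposite strand.
INSIG1: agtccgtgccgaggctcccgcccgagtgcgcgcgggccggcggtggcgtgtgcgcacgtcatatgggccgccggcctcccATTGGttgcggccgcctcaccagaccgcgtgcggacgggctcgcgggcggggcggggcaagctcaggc
DHCR7: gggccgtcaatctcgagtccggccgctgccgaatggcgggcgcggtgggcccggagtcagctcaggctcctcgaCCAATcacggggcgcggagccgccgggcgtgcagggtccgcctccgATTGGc
LSS: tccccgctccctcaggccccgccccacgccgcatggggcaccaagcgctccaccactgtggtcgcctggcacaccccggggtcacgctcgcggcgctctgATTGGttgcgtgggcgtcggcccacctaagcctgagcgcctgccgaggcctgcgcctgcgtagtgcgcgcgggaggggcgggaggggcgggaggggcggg
HMGCS1: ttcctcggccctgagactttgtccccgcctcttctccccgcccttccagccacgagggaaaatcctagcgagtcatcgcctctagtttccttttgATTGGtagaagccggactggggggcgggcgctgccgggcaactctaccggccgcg

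In untreated cells the 8 genes were expressed over a wide range. Scaled to exon length, FDFT1 had the highest level at 29.3 ± 1.28 RPKM (CPM per kilobase of exon, SD, n = 2). SQLE followed with 26.3 ± 0.312 RPKM (SD, n = 2), HMGCS1 with 18.9 ± 0.220 (SD, n = 2), DHCR7 with 17.3 ± 0.00686 (SD, n = 2) and INSIG1 with 14.0 ± 0.959 (SD, n = 2). LSS had 7.82 ± 0.249 RPKM (SD, n = 2) and SC5D 1.78 ± 0.276 (SD, n = 2). IDI1, which isomerizes isopentenyl diphosphate, had 0.262 ± 0.0985 RPKM (SD, n = 2), and its counts lay between 6 and 35 in all libraries. The handling of reads in overlapping genes or at several places is not given in the sources used here, and whether reads of IDI1 were lost in the counting was not tested, so its level is uncertain. Antisense exons cover 15.0% of the exon bases of IDI1, 37.7% of HMGCS1, 7.88% of LSS and 4.27% of FDFT1. The libraries were stranded, but the strand setting of the counting is not given in the sources used here. Whether reads of the antisense partners were kept apart from those of these genes is therefore not known.

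All 8 genes had lower levels with IFN-γ than in untreated cells. Below, a gene is said to rise or fall where its Benjamini-Hochberg-adjusted p over all tested genes was under 0.05 in edgeR's quasi-likelihood test, and is called where it also changed by over 2-fold. Against untreated cells 8 of 8 fell and 6 were called lower, where 36% of all tested genes fell and 17.2% were called lower. The log2 fold change had a median of -1.87 for the 8 genes and -0.06 for all tested genes. INSIG1 and DHCR7 changed most, and SQLE and SC5D fell by less than 2-fold. In RNA of whole cultures, fewer expressing cells and less RNA per cell cannot be told apart.

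At the start of the pathway, HMGCS1 makes HMG-CoA, from which mevalonate is formed. HMGCS1 (ENSG00000112972, chromosome 5, 43287470 to 43313512 in GRCh38, minus strand) lay at 124 and 126 CPM in untreated cells and at 30.8 and 33.0 CPM with IFN-γ. The groups did not overlap, and its log2 fold change was -1.97 (standard error 0.07, 95% interval -2.13 to -1.81, adjusted p = 9.598e-11). IDI1 (ENSG00000067064, chromosome 10, 1039152 to 1049119, minus strand) had 25 and 35 counts in the untreated libraries against 8 and 6 under IFN-γ, for a log2 fold change of -1.77 (standard error 0.48, adjusted p = 0.005065). This fall of IDI1 no longer passed without IFN-γ replicate 2, where the log2 fold change was -1.33 (adjusted p = 0.07144).

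The squalene and lanosterol steps fell unequally. FDFT1 (ENSG00000079459, chromosome 8, 11795573 to 11839395, plus strand), the squalene synthase, went from 144 and 154 CPM to 50.2 and 45.8 CPM, a log2 fold change of -1.64 (standard error 0.07, adjusted p = 4.2e-10). LSS (ENSG00000160285, chromosome 21, 46188141 to 46228824, minus strand), which cyclizes oxidosqualene to lanosterol, went from 55.3 and 57.9 CPM to 12.1 and 13.2 CPM, a log2 fold change of -2.16 (standard error 0.08, adjusted p = 1.077e-10). SQLE (ENSG00000104549, chromosome 8, 124998497 to 125022283, plus strand), which encodes the squalene epoxidase that acts between them, went from 112.5 and 114 CPM to 80.5 and 83.1 CPM. The SQLE libraries did not overlap either, but the log2 fold change was only -0.47 (standard error 0.06, 95% interval -0.60 to -0.34, adjusted p = 1.031e-05).

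The last steps of the pathway held both a large and a small change. DHCR7 (ENSG00000172893, chromosome 11, 71428193 to 71452868, minus strand), which reduces 7-dehydrocholesterol to cholesterol, went from 119 and 119 CPM to 15.5 and 17.0 CPM, a log2 fold change of -2.86 (standard error 0.07, adjusted p = 3.519e-12). SC5D (ENSG00000109929, chromosome 11, 121292681 to 121313410, plus strand), the sterol C5-desaturase that acts before it, lay at 19.9 and 15.9 CPM in untreated cells and at 13.0 and 15.5 CPM with IFN-γ. Its groups were separated by less than the distance between the untreated libraries, with a log2 fold change of -0.32 (adjusted p = 0.02666). The SC5D fall did not pass with DESeq2 (adjusted p = 0.09856), with DESeq2's size factors (0.05069) or in a fit of only these groups (0.07149). Without untreated replicate 1 it was -0.10 (adjusted p = 0.4837), without IFN-γ replicate 1 -0.20 (adjusted p = 0.202), and without replicate 1 of both agents -0.28 (adjusted p = 0.06291).

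INSIG1 (ENSG00000186480, chromosome 7, 155297776 to 155310235, plus strand), the anchor of SCAP in the endoplasmic reticulum, showed the largest fall of the 8. It lay at 48.8 and 53.7 CPM in untreated cells and at 5.49 and 5.95 CPM with IFN-γ. This was a log2 fold change of -3.16 (standard error 0.10, 95% interval -3.36 to -2.95, adjusted p = 1.339e-11), or 8.91-fold lower. Among all tested genes, 1.85% had a lower log2 fold change than INSIG1, 2.5% a lower one than DHCR7 and 39.1% a lower one than SC5D.

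**Figure D1:**
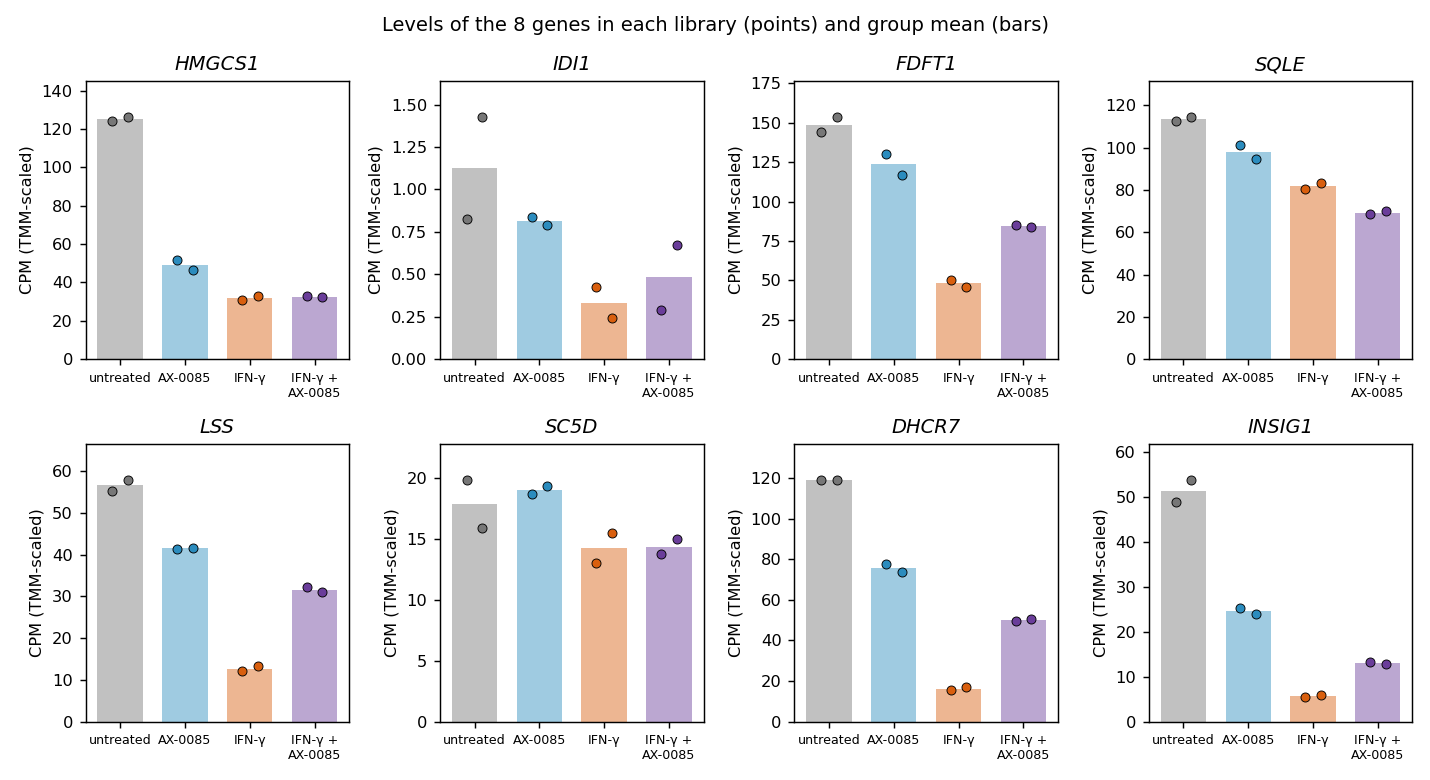
Level of each of the 8 genes in CPM (TMM-scaled, linear axis from 0) in the 4 groups; points are the 2 libraries of a group and bars their mean. DHCR7 drops from 119 CPM in untreated cells to between 15.5 and 17.0 CPM with IFN-γ and stands at 49.5 and 50.4 CPM with both agents, whereas HMGCS1 stays at 32.8 and 32.4 CPM with both.

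The plot of levels by library shows that AX-0085 given after IFN-γ raised some of these genes and not others. Against IFN-γ alone 4 of 8 rose (INSIG1, FDFT1, LSS and DHCR7) and 3 of them were called higher, where 33.7% of all tested genes rose and 16.5% were called higher. SQLE was the 1 gene that fell, and 32.8% of all tested genes fell. The median log2 fold change was 0.66 for the group and 0.03 for all tested genes.

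DHCR7 rose most, to 49.5 and 50.4 CPM, a log2 fold change of 1.61 (standard error 0.08, adjusted p = 9.023e-10). LSS reached 32.3 and 31.0 CPM, a log2 fold change of 1.32 (standard error 0.08, adjusted p = 1.813e-08). INSIG1 reached 13.3 and 12.9 CPM, a log2 fold change of 1.19 (standard error 0.11, adjusted p = 4.169e-07). All libraries of these genes with both agents lay above those with IFN-γ alone and below the untreated ones. FDFT1 reached 85.4 and 84.0 CPM, a rise of less than 2-fold whose log2 value was 0.82 (standard error 0.07, adjusted p = 4.268e-07).

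HMGCS1 lay at 32.8 and 32.4 CPM with both agents, within the range of the libraries with IFN-γ alone. Its log2 fold change was 0.03 (95% interval -0.14 to 0.20, adjusted p = 0.7403), an interval that leaves out a rise of the size seen for FDFT1, and its sign changed with DESeq2 and with DESeq2's size factors. SC5D, at 13.8 and 15.0 CPM, also overlapped with IFN-γ alone and had a log2 fold change of -0.00 (95% interval -0.27 to 0.26, adjusted p = 0.9791). IDI1 had 9 and 15 counts, and at this depth its log2 fold change of 0.49 had an interval from -0.74 to 1.72 (adjusted p = 0.4624). SQLE fell further, to 68.4 and 69.9 CPM, with a log2 fold change of -0.24 (adjusted p = 0.002943), and this fall did not pass with scaling by library size alone (-0.12, adjusted p = 0.1327).

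**Figure D2:**
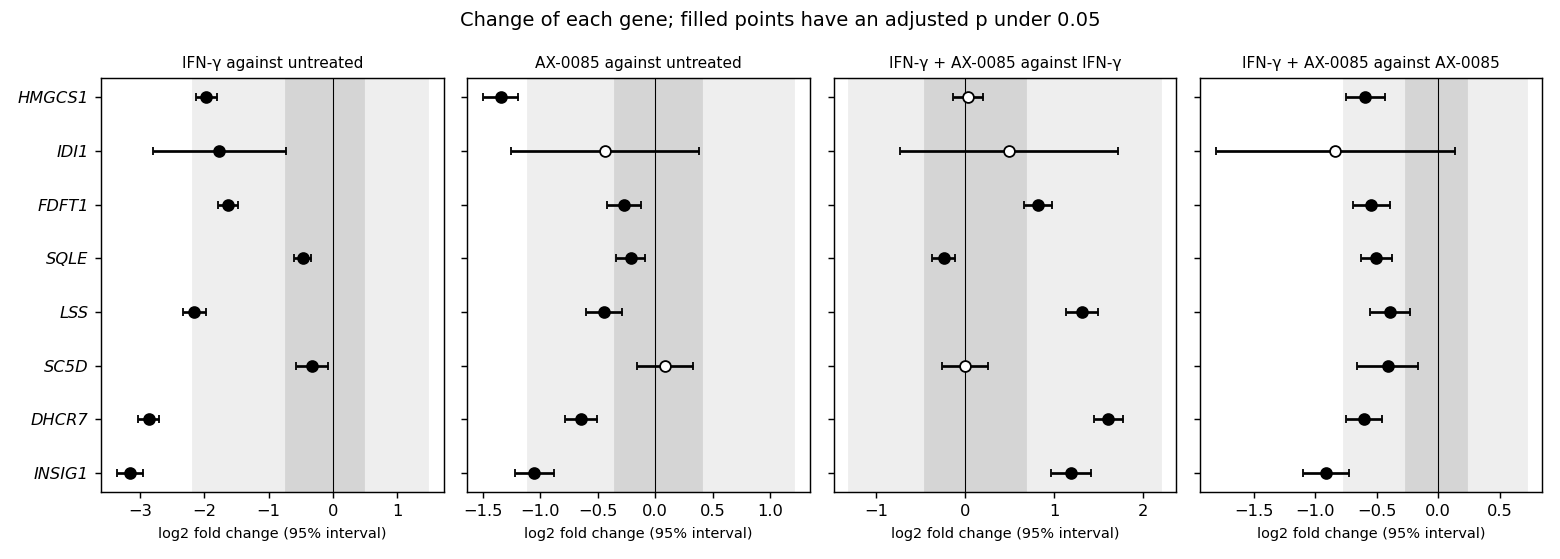
Log2 fold change of each gene in 4 comparisons; points are estimates, bars 95% intervals, filled points have an adjusted p under 0.05, and the grey bands hold the middle 50% (dark) and middle 90% (light) of all tested genes. INSIG1, DHCR7 and LSS lie left of zero with IFN-γ and right of it when AX-0085 was added, while HMGCS1 is at -1.97 and then at 0.03.

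AX-0085 without IFN-γ also lowered much of the group. Against untreated cells 6 of 8 fell and 0 rose, where 26.6% of all tested genes fell and 26.7% rose, and 2 were called lower, where 5.62% were. The median log2 fold change was -0.44 for the 8 genes and 0.01 for all tested genes. HMGCS1 changed most and went to 51.9 and 46.6 CPM, a log2 fold change of -1.35 (standard error 0.07, 95% interval -1.501 to -1.19, adjusted p = 9.286e-09). INSIG1 went to 25.4 and 23.9 CPM, a log2 fold change of -1.05 (standard error 0.08, adjusted p = 1.796e-07), which was -0.99 without untreated replicate 2, so that 1 gene was then called.

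DHCR7 went to 77.8 and 73.8 CPM with AX-0085 alone (log2 fold change -0.65, adjusted p = 2.623e-06) and LSS to 41.5 and 41.6 CPM (log2 fold change -0.45, adjusted p = 0.0002111). FDFT1 fell by 0.27 on the log2 scale (adjusted p = 0.004731) and SQLE by 0.21 (adjusted p = 0.00793). Without AX-0085 replicate 2 neither of these smaller falls passed (adjusted p = 0.0837 for FDFT1 and 0.1051 for SQLE). IDI1 had 21 counts in each AX-0085 library and SC5D lay at 18.7 and 19.3 CPM, both overlapping with untreated cells, with log2 fold changes of -0.44 (adjusted p = 0.3499) and 0.08 (adjusted p = 0.5551).

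When cells with both agents were set against AX-0085 alone, which gives the IFN-γ difference in the presence of the inhibitor, 7 of 8 genes fell and 0 were called, where 17.4% of all tested genes fell and 1.73% were called lower. The log2 fold changes of the 8 genes lay between -0.91 (INSIG1) and -0.39 (LSS), with a median of -0.57 against -0.01 for all tested genes. IDI1 was the gene that did not pass (log2 fold change -0.84, adjusted p = 0.1712). SC5D (-0.41, adjusted p = 0.01477) did not pass without AX-0085 replicate 1 (adjusted p = 0.05043), without AX-0085 replicate 2 (0.08619) or without replicate 1 of both agents (0.1645).

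Cells with both agents stayed below untreated cells in all 8 genes. All 8 fell in this comparison and 4 were called lower, where 28.8% of all tested genes fell and 7.23% were called lower. The log2 fold change had a median of -1.04 for the group and 0.01 for all tested genes. By the fitted change, INSIG1 stood at 25.6% of its untreated level and HMGCS1 at 26.1%, DHCR7 at 42.0%, LSS at 56.0%, FDFT1 at 56.9%, SQLE at 61.0% and SC5D at 79.7%. IDI1 stood at 41.3%, but its fall (log2 fold change -1.28, adjusted p = 0.02026) did not pass with DESeq2 (adjusted p = 0.08555), without untreated replicate 2 (-0.86, adjusted p = 0.1762) or without replicate 1 of both agents (-0.67, adjusted p = 0.2821). The fall of SC5D (-0.33, adjusted p = 0.02751) did not pass with DESeq2 (adjusted p = 0.06817), without untreated replicate 1 (-0.11, adjusted p = 0.4675) or without replicate 1 (adjusted p = 0.2613) or 2 (adjusted p = 0.05104) of both agents.

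The order of the groups was therefore not shared by all genes. For INSIG1, FDFT1, LSS and DHCR7 the level was highest in untreated cells, then with AX-0085, then with both and lowest with IFN-γ, and each neighbouring step passed its test, with the weaker step of FDFT1 from untreated cells to AX-0085 as given above. HMGCS1 was highest in untreated cells and next with AX-0085, and its levels with IFN-γ and with both overlapped. SQLE was the gene whose lowest level was with both agents. AX-0085 and IFN-γ alone share the untreated libraries and were not tested against each other.

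Whether the effect of AX-0085 differed with and without IFN-γ was tested as an interaction. The term was positive and passed for 5 of 8 genes, where it did so for 26.7% of all tested genes, and all 5 were also over 2-fold, where 12.1% of all tested genes were, with a median of 1.23 for the group and 0.05 for all tested genes. For DHCR7 it was 2.26 (standard error 0.10, adjusted p = 2.765e-09), since AX-0085 changed DHCR7 by -0.65 without IFN-γ and by 1.61 with it. HMGCS1 had a term of 1.38 (standard error 0.10, adjusted p = 3.133e-07), with a change of -1.35 without IFN-γ and of 0.03 with it. SQLE (-0.03, adjusted p = 0.7732), SC5D (-0.09, adjusted p = 0.6829) and IDI1 (0.93, adjusted p = 0.2778) did not pass, and the interval of SQLE ran from -0.21 to 0.15.

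Around the 8 genes, a list of 15 other enzymes of the pathway was examined. EBP and ERG28 were listed at 0 in all libraries, CYP51A1 had 1 count in all, and 12 were tested. Exons of other genes cover 74.1% of the exon bases of CYP51A1, 36.4% of EBP and 0% of ERG28, and whether their reads were lost in the counting was not tested. With IFN-γ 11 of the 12 fell, 7 were called lower and 0 rose, with a median of -1.19. Of all tested genes, 36% fell, 17.2% were called lower and 32.1% rose. The mevalonate enzymes MVK and MVD had log2 fold changes of -2.18 and -2.21 with IFN-γ and of 1.19 and 1.41 when AX-0085 was added. FDPS, which makes the farnesyl diphosphate used by FDFT1, and ACAT2, which makes acetoacetyl-CoA for HMGCS1, fell by 1.59 and 1.46 with IFN-γ and then changed by 0.41 and 0.27. MSMO1, which takes part in removing the C4 methyl groups of lanosterol, fell by 1.30 with IFN-γ, and its change of 0.31 when AX-0085 was added did not pass (adjusted p = 0.06391). NSDHL, which acts in the same demethylation, fell by 0.25 with IFN-γ. With both agents against IFN-γ alone, 9 of the 12 rose and 4 were called higher, MVK, MVD and TM7SF2 among them. Of all tested genes, 33.7% rose and 16.5% were called higher. The share among genes that had fallen with IFN-γ was not counted here either. Without IFN-γ replicate 2, MVK and TM7SF2 were under the 2-fold limit (log2 fold changes 0.97 and 0.98). The rises of ACAT2 and HSD17B7 did not pass with DESeq2 (adjusted p = 0.09239 and 0.1336). That of ACAT2 did not pass with DESeq2's size factors either (adjusted p = 0.06101). The rise of LBR, 0.28, was 0.13 without IFN-γ replicate 1. With AX-0085 alone 9 fell and 2 rose, where 26.6% of all tested genes fell and 26.7% rose. With DESeq2, the falls of MVD and HSD17B7 (adjusted p = 0.06631 and 0.09059) and the rise of TM7SF2 (adjusted p = 0.1604) did not pass. ACAT2, with a log2 fold change of -1.05, was the 1 enzyme called lower, where 5.62% of all tested genes were. Its change was -0.95 without AX-0085 replicate 2, under the 2-fold limit.

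**Figure D3:**
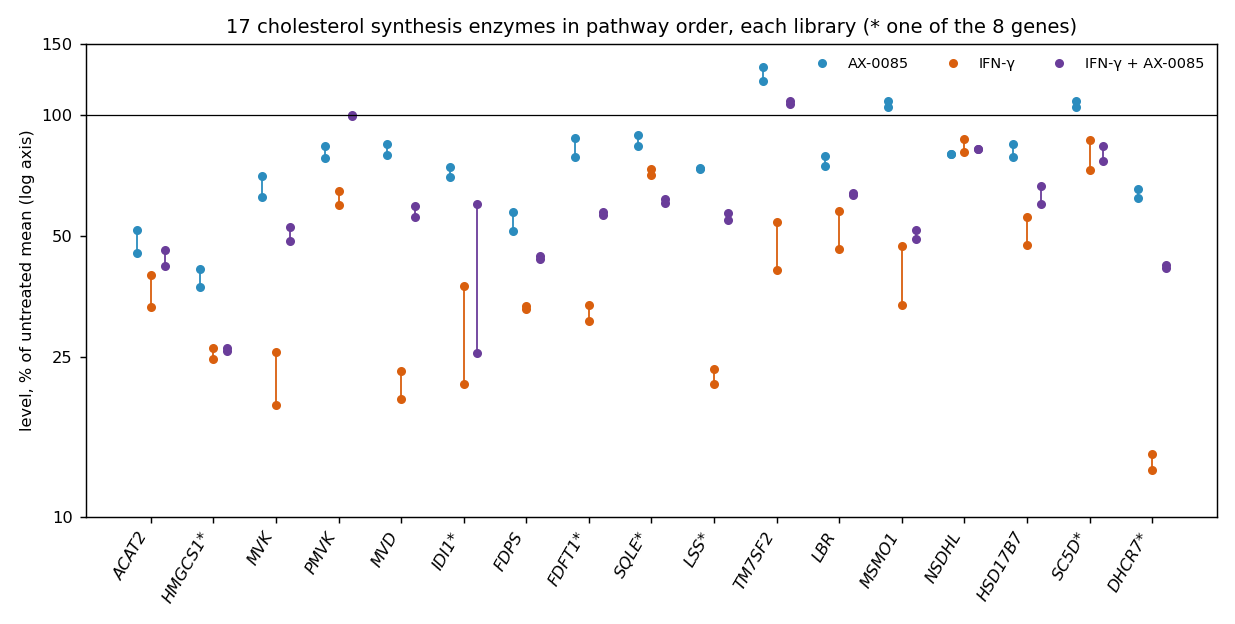
Level of 17 enzymes in pathway order, each as a percentage of its untreated mean (log axis), with 1 point per library and a line joining the 2 libraries of a group; asterisks mark the genes of the group, and INSIG1, which is no enzyme, is not drawn. Of the enzymes drawn, DHCR7 lies lowest with IFN-γ, at 15.5 and 17.0 CPM against 119 CPM in untreated cells, while SQLE, NSDHL and SC5D lie above 70%.

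Of the genes that control SREBP2, the gene of the factor itself changed most. SREBF2, which encodes SREBP2, lay at 130.1 ± 0.147 CPM (SD, n = 2) in untreated cells and at 55.9 ± 0.396 CPM (SD, n = 2) under IFN-γ, for a log2 fold change of -1.22 (adjusted p = 1.456e-09). With both agents it reached 72.3 and 74.0 CPM, or 56.2% of untreated by the fitted change. SCAP, SREBF1, INSIG2, the protease gene MBTPS1 and SPRING1 also fell with IFN-γ, their log2 fold changes lying between -0.67 and -0.46, and the protease gene MBTPS2 rose by 0.30. In all, 6 of the 10 regulators fell and 3 rose, where 36% of all tested genes fell and 32.1% rose, and RNF139 did not pass (log2 fold change 0.15, adjusted p = 0.1322). SREBF2 was the 1 regulator of this list called, where 17.2% of all tested genes were called lower.

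A list of 16 genes of sterol uptake and transport, of which 15 were tested, was also examined. With IFN-γ 11 fell and 7 were called lower, where 36% of all tested genes fell and 17.2% were called lower. The other 4 rose, a share near the 32.1% of all tested genes that rose. The median log2 fold change of the list was -0.66. NPC1, which exports cholesterol from lysosomes, rose by 1.86 with IFN-γ (adjusted p = 2.361e-11) and fell by 1.54 when AX-0085 was added, opposite in sign to the 8 genes with IFN-γ.

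**Figure D4:**
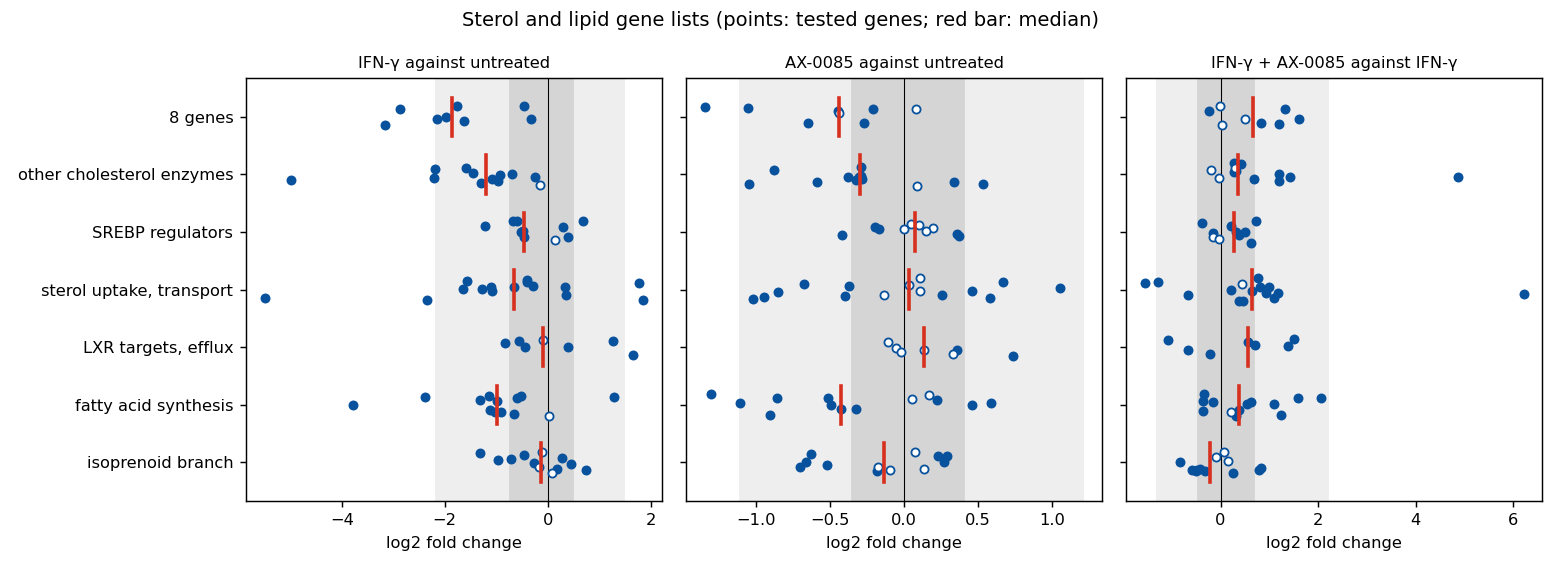
Log2 fold changes of the tested genes of 7 lists in 3 comparisons; 1 point is a gene, filled where its adjusted p was under 0.05, red bars are list medians, and the grey bands hold the middle 50% and 90% of all tested genes. The median of the 8 genes is -1.87 with IFN-γ, that of the other cholesterol enzymes -1.19, and the median of the 8 is 0.66 when AX-0085 was added.

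The levels of the 8 genes across the 8 libraries were averaged after standardization of log2 CPM to give 1 profile. It was 1.08 and 1.08 standard deviations without agents, 0.54 and 0.44 under AX-0085, -1.13 and -1.05 under IFN-γ, and -0.60 and -0.36 when both were present. Against the profile of the other 7 genes, INSIG1 had the highest Pearson's r (0.98) and SC5D the lowest (0.71). Of 10085 other genes whose mean log2 CPM was at least 2, 292 had an r of at least 0.95 with the profile, as a description over 8 libraries that fall into 4 groups. The highest were MFGE8, GDF11, ENSG00000170089, NIPA2, LAPTM4B and TEAD2, with r between 0.9945 and 0.9958. MFGE8, for example, lay at 78.8 and 84.6 CPM without agents, 67.8 and 66.5 CPM under AX-0085, 40.2 and 40.6 CPM under IFN-γ and 46.6 and 53.5 CPM when both were present.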

How the data were processed

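Stranded mRNA libraries of 8 A549 samples were sequenced by the authors, who trimmed the reads with Trim Galore 0.6.7, mapped them to GRCh38 with STAR 2.7.9a and counted them per gene with featureCounts, according to the study's methods and the submitters' processing notes. The deposited values are raw counts per Ensembl gene without normalization. The annotation release, the strand setting and the treatment of reads mapping to several places are not given in the sources used here. Of the 60664 gene identifiers, 60463 matched a symbol and a position in the GENCODE annotation of GRCh38 used here.

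In R 4.3.3, edgeR 4.0.16 was used to filter genes (filterByExpr), to compute TMM factors and to fit a quasi-likelihood model to all 8 libraries, in which the 4 groups were the only terms. P-values were adjusted over the 15066 genes tested in each of 6 comparisons, and standard errors were taken from the F statistic. An adjusted p under 0.05 with a fold change over 2 made a call, after the study's thresholds, although the study used DESeq2. Genes were tested only in the model, because an exact permutation test (two-sided) of 2 against 2 libraries has a smallest p of 0.333. The common biological coefficient of variation was 0.0609, and the CPM of 3 counts covers counting error only, whereas intervals of fold changes include the spread between libraries. The libraries of a group differed beyond sampling noise (chi-square per degree of freedom between 8.55 and 27.7), so no pair was treated as repeats of the same library, which does not show that they came from separate cultures. The scripts were tested on simulated data.

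The 8 genes, the gene lists and the alternatives were chosen with earlier results of these data known. Named were the 8 genes, the lists of other cholesterol enzymes and of SREBP regulators, of the other lists the largest rise and fall that passed in each comparison with 1 agent changed, and the 6 genes with the profile most like that of the 8. Some genes that this rule names are not reported here. The naming of VLDLR, ABCA1, SCD, single cell markers and genes with few or no counts followed sight of their values. Alternatives were DESeq2 1.42.0, its size factors, library size alone, no filter, a minimum of 10 counts per library, a call by adjusted p alone, a fit of the compared groups alone, a block for the replicate number and leaving out each library.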

Additional observations from a re-analysis of the deposited data

Results flagged for a closer look

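The effect of AX-0085 differed between cells with and without IFN-γ for 5 of the 8 genes, by a test of the interaction itself (edgeR quasi-likelihood test). The difference, as the log2 change upon AX-0085 with IFN-γ minus that without, was 2.26 for DHCR7 (adjusted p = 2.765e-09), 2.24 for INSIG1 (adjusted p = 3.027e-08), 1.76 for LSS (adjusted p = 6.316e-08), 1.38 for HMGCS1 (adjusted p = 3.133e-07) and 1.09 for FDFT1 (adjusted p = 1.594e-06). Both libraries with AX-0085 lay below both untreated libraries for each of these 5 genes. Both libraries with AX-0085 and IFN-γ lay above both libraries with IFN-γ for 4 of them. HMGCS1 was the exception, with 30.8 and 33.0 CPM with IFN-γ and 32.8 and 32.4 CPM with both agents. These positions describe the libraries that gave the interaction and are no separate support for it. How many of all tested genes were separated in this way was not counted. All 5 terms passed under every alternative that was run.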

How the results depend on the processing

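The calls for INSIG1, DHCR7, LSS and HMGCS1 with IFN-γ held under all alternatives, with IFN-γ changes between -3.27 and -3.08, -2.98 and -2.79, -2.27 and -2.09, and -2.08 and -1.91. With the adjusted p alone, the number of the 8 genes called lower was 1 in place of 0 for both agents against IFN-γ, 6 in place of 2 for AX-0085 against untreated, 7 in place of 0 for both against AX-0085 and 8 in place of 4 for both against untreated. Leaving out each library gave 1 to 2 genes called lower with AX-0085 alone. Values near 0 changed sign. For both agents against IFN-γ, HMGCS1 was -0.0072 with DESeq2 and -0.0071 with its size factors, and between -0.0239 and 0.0754 with libraries left out. SC5D in the same comparison was 0.1167 with library size alone, 0.0509 with at least 10 counts, 0.0163 with only the groups compared, 0.0098 with swapped numbers, and between -0.1261 and 0.1275 with libraries left out, where IDI1 lay between -0.1562 and 1.0564. The interaction was 0.0847 for SQLE and 0.0297 for SC5D with library size alone and 0.0050 for SQLE with at least 10 counts, and with libraries left out lay between -0.0798 and 0.0134 for SQLE and between -0.2794 and 0.0540 for SC5D. The AX-0085 change of SC5D lay between -0.0630 and 0.2709. Library size alone moved the median of all genes from -0.06 to -0.18 with IFN-γ and from 0.03 to 0.16 when AX-0085 was added. IDI1 was not tested with at least 10 counts in every library. The cause of these changes was not tested. At most 35 counts of IDI1 limit what its comparisons can show.

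Deviations of same-numbered libraries had correlations between -0.109 and 0.0873, so no shared deviation by replicate number was seen. This does not show whether same-numbered libraries were prepared together, which the labels do not say. With the replicate number as a block, 6 of the 8 genes were called lower with IFN-γ, 3 higher when AX-0085 was added and 5 higher in the interaction, the same numbers as without it, and no call of the 8 genes was lost. With the untreated numbers swapped, chosen after seeing the data, these counts were 6, 3 and 5.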

Other observations

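Other lipid genes were read against the shares of all tested genes with IFN-γ, of which 36% fell and 32.1% rose. In a list of 15 genes of SREBP1 and fatty acid synthesis, 13 were tested, and with IFN-γ 11 fell and 1 rose, with a median log2 fold change of -0.99. FADS2, a desaturase of polyunsaturated fatty acids, changed by -3.79 with IFN-γ and by 2.06 when AX-0085 was added, and SCD, the stearoyl-CoA desaturase, by -2.38 and 1.23. FASN, the fatty acid synthase, fell by 0.66 with IFN-γ and by a further 0.37 when AX-0085 was added, and AX-0085 alone changed it by -1.30. MID1IP1, whose product stimulates acetyl-CoA carboxylase, was the gene that rose with IFN-γ, by 1.28. Of 10 LXR targets and genes of sterol efflux, 7 were tested, and with IFN-γ 3 rose and 3 fell. The cholesterol exporter genes ABCG1 and ABCA1 rose by 1.65 and 1.26 with IFN-γ and fell by 1.08 and 0.67 when AX-0085 was added. VLDLR rose by 1.77 with IFN-γ.

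In the isoprenoid branch, which uses the same diphosphates for other products, 12 of 14 genes were tested, and with IFN-γ 5 fell and 4 rose, shares near those of all tested genes, with a median of -0.13. RABGGTA, a subunit of a prenyltransferase of RAB proteins, fell by 1.32. Of 7 genes of oxysterol synthesis, 3 were tested, and all 3 fell with IFN-γ. HSD3B7 changed by -1.67 with IFN-γ and by 1.91 when AX-0085 was added, and 64.8% of its exon bases lie in exons of other genes. CYP46A1 had 17 and 3 counts in untreated cells and 0 counts in both IFN-γ libraries, and its fall did not pass without untreated replicate 1 (adjusted p = 0.05828). CYP7B1 had 8 and 9 counts in the untreated libraries against 2 and 3 under IFN-γ, and its adjusted p of 0.04956 was just under the threshold. CH25H, the cholesterol 25-hydroxylase, had at most 1 count in any library.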
